A study of Mus musculus with 12 samples.

Results

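HDAC2, a class I histone deacetylase that removes acetyl groups from histones as part of corepressor complexes, was deleted in adult mice, and the kidneys of these mice and of controls were compared 4 h after ischemia and reperfusion injury (IRI). The subject here is the genotype difference in the response to ischemia, that is, for each probe set, the change after ischemia in HDAC2-/- kidneys less the change after ischemia in WT kidneys. All 12 arrays of the series entered this comparison, and the difference was taken for all 34472 probe sets. A value above 0 means that expression moved further up, or less far down, in HDAC2-/- than in WT kidneys, and a value below 0 means the opposite.

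The kidneys came from female mice, 8 to 12 weeks old, with 3 mice in each of 4 groups: WT without ischemia, WT with ischemia, HDAC2-/- without ischemia and HDAC2-/- with ischemia. According to the labels, the WT mice were wild type ERT2cre mice of the B6 background and the HDAC2-/- mice were HDAC2fl/fl-ERTcre, so that both genotypes carried the tamoxifen-inducible Cre, and both received tamoxifen at 100 mg/kg daily for 5 days followed by 7 days of recovery. The study's methods describe the controls as WT B6 mice. Because this Cre is not restricted to a cell type, the deletion was not confined to the kidney. The clamp was held on the left renal pedicle for 28 min and the right kidney was removed. A sham operation is not described for the unischemic mice, so each response includes the effect of the surgery as well as that of the clamp. The labels give the tissue as renal cortex and the methods as whole kidney.

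As background, a clamped kidney is deprived of oxygen and then reperfused, and within hours its tubular cells mount a heat shock and unfolded protein response, induce early transcription factors and injury genes such as those for neutrophil gelatinase-associated lipocalin and kidney injury molecule 1, and release chemokines. Tubular segments differ in sensitivity. The distal convoluted and connecting tubules reabsorb calcium and magnesium, the intercalated cells of the connecting tubule and collecting duct secrete acid or base, and the thick ascending limb of the loop of Henle reabsorbs sodium chloride and sets up the voltage that drives magnesium and calcium between cells.

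The arrays of a group correlated at 0.983 to 0.994, and the median log2 values of the arrays lay between 5.62 and 5.76. The Hdac2 probe set had log2 values of 7.90, 7.85 and 8.01 in WT, 7.93, 8.17 and 7.94 in ischemic WT, 7.83, 7.68 and 8.45 in HDAC2-/- and 8.12, 7.95 and 8.32 in ischemic HDAC2-/- kidneys. It was not lower in the arrays labelled HDAC2-/-, so it gives no check of the deletion. The injury genes moved in both genotypes, and all differences given here are on the log2 scale. Lcn2 rose by 3.58 in WT and by 3.33 in HDAC2-/- kidneys. Its HDAC2-/- mean less the WT mean was -0.67 without ischemia and -0.92 after it, without overlap in either state. Havcr1 rose by 1.84 in WT and by 2.88 in HDAC2-/- kidneys, a difference of 1.04 with a standard error of 0.73. Without ischemia all HDAC2-/- values of Havcr1 lay below the WT values. After ischemia the groups overlapped, with means of 7.93 in WT and 7.91 in HDAC2-/- kidneys. The mean of 85 small nuclear and nucleolar RNA probe sets, which varied more between arrays of a group than other genes, ranged from 8.02 in ischemic WT replicate 2 to 9.23 in ischemic HDAC2-/- replicate 2. Their median difference of the responses was 0.21, with a range of -0.08 to 0.44 when each array was left out in turn.

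No probe set passed the test for a difference of the responses. With limma and Benjamini-Hochberg adjustment over all probe sets, 0 of 34472 (0%) had an adjusted p under 0.05. The smallest adjusted p was 0.956, so no single gene is shown to respond differently. Differences of the genes described in detail are given below with their standard error (SE) or 95% interval. Others are given as the estimate alone, and some of their 95% intervals include 0, as for Ass1 (-1.52 to 0.12). Genes chosen by the size or p of their difference in these same data have estimates that tend to lie too far from 0. Their intervals are not adjusted for that choice, so an interval that excludes 0 is no test. At an unadjusted p under 0.05 there were 1445 probe sets (4.19%), fewer than the 1724 that a share of 5 in 100 would give, with 873 above 0 (2.53%) and 572 below 0 (1.66%). The balance of directions depended on 1 mouse, since without ischemic WT replicate 2 there were 556 above 0 and 668 below. The smallest unadjusted p was 7.88e-05. The median standard error was 0.17 for a response and 0.24 for the difference, and at that error the 95% interval of a difference, unadjusted for the number of probe sets, reached 0.52 to either side. The difference was at least 1 (2-fold) in size for 129 probe sets, 76 above 0 and 53 below.

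The responses that passed the test mostly had the same sign in the other genotype. A response was at least 1 (2-fold) in size for 1187 probe sets in WT and 619 in HDAC2-/- kidneys. In WT kidneys 2258 probe sets rose (6.55%) and 2472 fell (7.17%) at an adjusted p under 0.05, and in HDAC2-/- kidneys 1013 rose (2.94%) and 678 fell (1.97%). Of these, 1448 were called in both genotypes, and 0 of the 1448 moved in opposite directions. The counts of calls moved with the setting: with arrays weighted by their quality they were 6007 in WT and 6356 in HDAC2-/- kidneys, and without HDAC2-/- replicate 3 the HDAC2-/- count was 2848. Among the 4730 probe sets called in WT, the HDAC2-/- response had the opposite sign in 98, and among the 1691 called in HDAC2-/-, the WT response had the opposite sign in 15. Responses of opposite sign that were each at least 0.5 in size were found for 18 probe sets, 6 of which were positive in WT and 12 negative.

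The size of the shared response was compared over the 6358 probe sets whose mean change over both genotypes had an adjusted p under 0.05, sorted by that mean change, a measure that does not draw on the difference. Among those of them that rose, the HDAC2-/- response was the smaller in 73.3% of 1290 probe sets that rose less than 1.5-fold, 75.7% of 1109 that rose 1.5- to 2-fold, 69.3% of 462 that rose 2- to 4-fold and 61% of 77 that rose over 4-fold. Among those that fell, it was the smaller in 77.1% of 2045, 80.3% of 1180, 77.4% of 190 and 100% of 5. The median differences were between -0.13 and -0.21 for the rises and between 0.18 and 0.40 for the falls, where a typical rise of 2- to 4-fold had a median of 1.37 in WT and 1.17 in HDAC2-/- kidneys. These medians kept their sign when any 1 array was left out, except that of the rises over 4-fold, which moved from -0.13 to 0.02 without ischemic HDAC2-/- replicate 2. Probe sets share arrays and regulation and are not independent, so these shares are a description and carry no test.

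**Figure D1:**
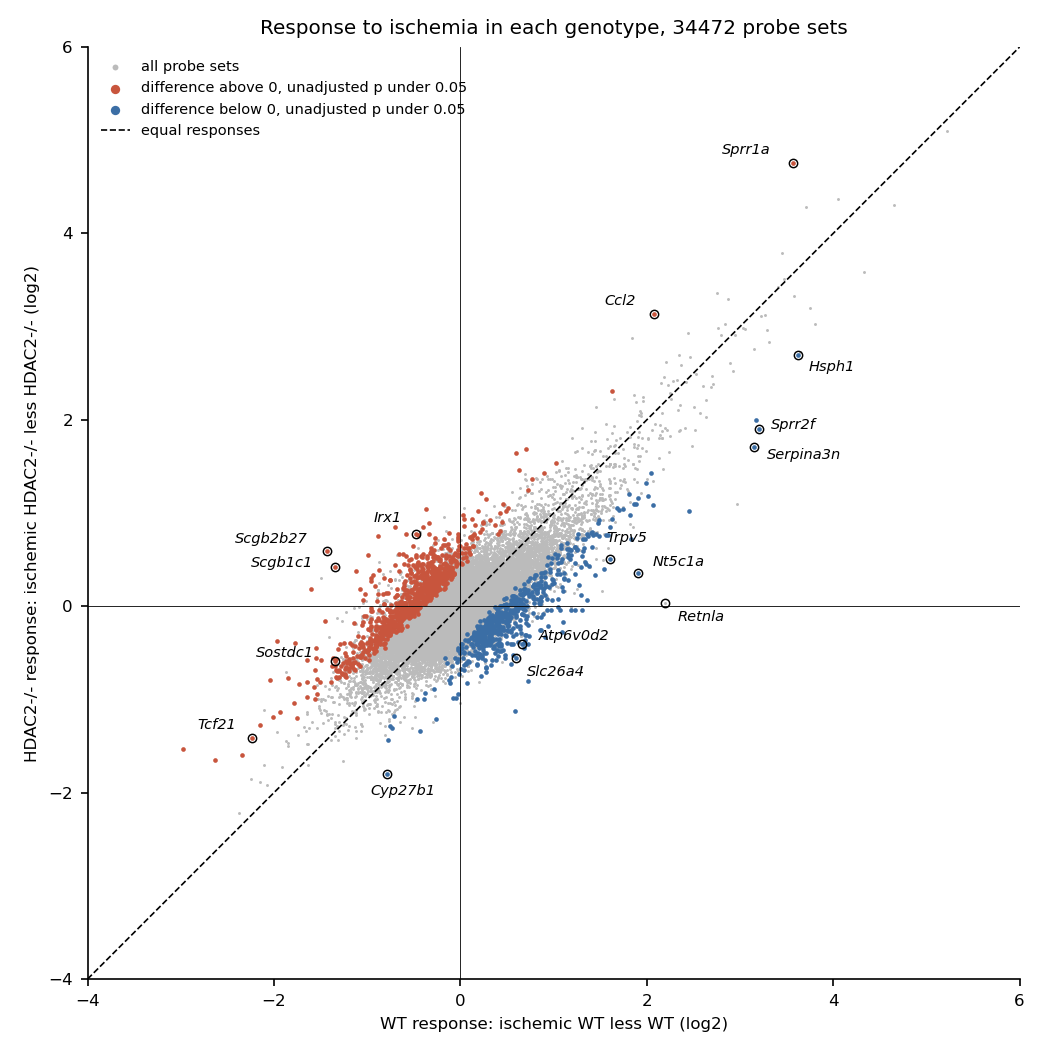
Response to ischemia in WT kidneys (horizontal axis, log2) and in HDAC2-/- kidneys (vertical axis, log2) for each of 34472 probe sets, with those at an unadjusted p under 0.05 for the difference coloured by direction, 16 named genes circled and equal responses on the dashed line. Most points lie along the line; Slc26a4 lies to the right of 0 and below 0, with responses of 0.60 in WT and -0.55 in HDAC2-/- kidneys, and Irx1 the other way, at -0.48 and 0.77.

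Genes were then grouped into 59 lists, 43 of functions and 16 of cell types, which held 1313 genes, of which 1195 were measured by a probe set of that gene alone. The median difference lay below 0 in 35 lists and above 0 in 24, beside a median of 0.010 over all probe sets, of which 51.8% were above 0. It kept its sign in 29 of the 59 lists when each of the 12 arrays was left out in turn, moved by over 1.5 times in 57 lists in at least 1 of these fits, and had the other sign in 14 lists with arrays weighted by their quality. The range beside a list's median below is over these 12 fits. Over all probe sets 6.55% rose and 7.17% fell in WT, and 2.94% rose and 1.97% fell in HDAC2-/- kidneys. Fewer calls in HDAC2-/- kidneys were thus the pattern of the whole array, beside which the counts for a list are to be read. Counts at an unadjusted p under 0.05 are to be read beside 2.53% above 0 and 1.66% below. The response of a list in 1 ischemic array is its mean over the members, less the same mean in the unischemic arrays of that genotype. By this measure the 3 WT and the 3 HDAC2-/- arrays did not overlap in 6 of the 59 lists, beside 11.1% of single probe sets without overlap above 0 and 8.6% without overlap below 0. Lack of overlap was thus no more common among lists than among single probe sets, and it is given below as a description only. Genes were named by the size or p of their difference, within lists or over all genes, and other members, neighbours and well-known markers named beside them were chosen after their values were seen.

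The list furthest below 0 was that of the distal convoluted and connecting tubule, with a median difference of -0.40 over 16 genes (range -0.50 to -0.27 over the 12 fits that each left out 1 array). Of the 16 members, 11 lay below 0 and 5 above, with 4 below 0 and 0 above at an unadjusted p under 0.05, beside 1.66% and 2.53% of all probe sets. The list's response was between -0.08 and 0.22 in the 3 ischemic WT arrays and between -0.48 and -0.12 in the 3 ischemic HDAC2-/- arrays. In these tissue samples, fewer cells of a type and less RNA per cell cannot be told apart.

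The 4 members at an unadjusted p under 0.05 were the calcium and magnesium channels Trpv5 and Trpm6, the sodium-calcium exchanger Slc8a1 and the kinase Wnk1, which regulates salt transport in this segment. Trpv5, the apical channel through which calcium enters distal tubule cells, had log2 values of 8.48, 8.79 and 8.97 in WT, 10.12, 11.07 and 9.88 in ischemic WT, 9.02, 8.88 and 9.02 in HDAC2-/- and 9.97, 8.90 and 9.59 in ischemic HDAC2-/- kidneys. Every ischemic WT kidney lay above every WT kidney without ischemia, while the HDAC2-/- groups overlapped and replicate 2 of the ischemic HDAC2-/- kidneys stayed at the unischemic level. Trpv5 rose by 1.61 in WT (adjusted p = 0.00257), its change in HDAC2-/- kidneys was 0.51 (adjusted p = 0.421), and the difference was -1.10 (SE 0.41, 95% interval -1.98 to -0.21). Trpv6, a related calcium channel encoded next to Trpv5, had responses of 0.99 and 0.28, a difference of -0.72 (SE 0.30).

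Trpm6, the channel that takes up magnesium in the distal convoluted tubule, had log2 values of 7.37, 7.51 and 7.65 in WT, 7.91, 8.85 and 8.00 in ischemic WT, 7.77, 7.44 and 8.07 in HDAC2-/- and 7.74, 7.02 and 7.56 in ischemic HDAC2-/- kidneys. The 3 ischemic WT values lay above the 3 ischemic HDAC2-/- values, and neither response passed the test, at 0.74 and -0.32, with a difference of -1.06 (SE 0.35, 95% interval -1.82 to -0.30). For Slc8a1, which moves calcium out of the cell on the basal side, the responses were 0.22 and -0.75 and the difference -0.97 (SE 0.35), and the ischemic groups again did not overlap. Wnk1 rose in WT by 0.61 (adjusted p = 0.0328) and its HDAC2-/- response was -0.05, a difference of -0.66 (SE 0.25) that was -0.42 without ischemic WT replicate 2.

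The other members of the list had an unadjusted p above 0.05. Slc12a3, the thiazide-sensitive sodium chloride cotransporter, had a difference of -0.52 (SE 0.28), and Calb1, the calcium-binding protein that carries calcium across the cell, one of -0.42 (SE 0.24). Klhl3, an adaptor that targets WNK kinases for degradation, fell in both genotypes, with responses of -0.81 in WT and -1.38 in HDAC2-/- kidneys. Parvalbumin (Pvalb), a calcium-binding protein of the distal convoluted tubule, had a difference on the other side of 0, of 0.31 (SE 0.38).

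The intercalated cell list had a median difference of -0.33 over 20 genes (range -0.51 to -0.16). Of these, 17 lay below 0 and 3 above, with 3 below 0 and 0 above at an unadjusted p under 0.05. In WT kidneys 1 member rose and 5 fell, and in HDAC2-/- kidneys 7 fell. The list's response overlapped between the genotypes, at -0.50 to -0.17 in WT and -0.94 to -0.36 in HDAC2-/- arrays.

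Slc26a4 encodes pendrin, the chloride-bicarbonate exchanger of type B intercalated cells. Its log2 values were 8.14, 8.55 and 8.68 in WT, 8.83, 9.45 and 8.89 in ischemic WT, 8.79, 8.72 and 8.78 in HDAC2-/- and 8.75, 7.73 and 8.15 in ischemic HDAC2-/- kidneys. All 3 ischemic WT kidneys lay above the WT kidneys without ischemia and above all ischemic HDAC2-/- kidneys. Neither response of 0.60 and -0.55 passed the test by itself, and they had opposite signs, with a difference of -1.15 (SE 0.33, 95% interval -1.87 to -0.43). Atp6v0d2, a subunit of the proton pump of intercalated cells, had log2 values of 7.49, 7.75 and 7.95 in WT, 8.07, 8.69 and 8.42 in ischemic WT, 7.84, 7.95 and 8.15 in HDAC2-/- and 7.74, 7.53 and 7.45 in ischemic HDAC2-/- kidneys. Ischemic kidneys lay above the unischemic ones in WT and below them in HDAC2-/- mice, with no overlap in either genotype. Atp6v0d2 rose in WT by 0.66 (adjusted p = 0.0217), the HDAC2-/- response was -0.41 (adjusted p = 0.249), and the difference was -1.07 (SE 0.25, 95% interval -1.60 to -0.54).

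Car12, a membrane carbonic anhydrase, had log2 values of 11.30, 11.47 and 11.39 in WT, 11.09, 11.56 and 11.21 in ischemic WT, 11.80, 11.76 and 11.49 in HDAC2-/- and 11.18, 10.65 and 10.95 in ischemic HDAC2-/- kidneys. The HDAC2-/- kidneys were above the WT kidneys without ischemia, and Car12 fell in HDAC2-/- kidneys (response -0.76, adjusted p = 0.018), whereas the WT response was -0.10, a difference of -0.66 (SE 0.24, 95% interval -1.16 to -0.15). Slc4a9, another bicarbonate transporter of type B cells, had responses of 0.41 and -0.41 and a difference of -0.82 (SE 0.39). Foxi1, the transcription factor that specifies intercalated cells, had responses of -0.41 and -0.47, a difference of -0.06 (SE 0.20). Slc4a1, the anion exchanger of type A cells, fell in both genotypes, with responses of -1.62 and -1.31.

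The loop of Henle list lay above 0, with a median difference of 0.22 over 16 genes, 11 above 0 and 5 below. At an unadjusted p under 0.05 there were 4 members above 0 and 1 below. Of its members, 4 fell in WT kidneys, and in HDAC2-/- kidneys 3 fell and 1 rose. Without WT replicate 1 the median was -0.02, with arrays weighted by their quality it was -0.01, and the array responses overlapped (-0.65 to -0.46 in WT, -0.60 to -0.14 in HDAC2-/-). Without ischemia the list's mean log2 level was 9.83 to 10.45 in WT, highest in replicate 1, and 9.65 to 9.95 in HDAC2-/- kidneys. After ischemia it was 9.40 to 9.59 in WT and 9.22 to 9.68 in HDAC2-/- kidneys, so the ischemic HDAC2-/- kidneys were not higher as a group.

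Irx1, a homeobox transcription factor of distal nephron segments including the thick ascending limb, had log2 values of 8.55, 8.04 and 8.16 in WT, 7.70, 7.52 and 8.09 in ischemic WT, 7.67, 7.81 and 7.64 in HDAC2-/- and 8.33, 8.35 and 8.75 in ischemic HDAC2-/- kidneys. Without ischemia all 3 HDAC2-/- kidneys were below all 3 WT kidneys, and after ischemia they were above them. Irx1 rose by 0.77 in HDAC2-/- kidneys (adjusted p = 0.026), its WT response was -0.48 (adjusted p = 0.105), and the difference was 1.25 (SE 0.26, 95% interval 0.70 to 1.80), with Irx2, its neighbour in the same gene cluster, at 0.61 (SE 0.29). Sostdc1, a secreted inhibitor of bone morphogenetic protein and Wnt signalling that is made in the distal nephron, had log2 values of 11.73 to 11.93 in WT, 10.30 to 10.68 in ischemic WT, 11.49 to 11.62 in HDAC2-/- and 10.85 to 11.09 in ischemic HDAC2-/- kidneys. None of the 4 groups overlapped. Sostdc1 fell in both genotypes, with responses of -1.34 in WT and -0.59 in HDAC2-/- kidneys and a difference of 0.74 (SE 0.19, 95% interval 0.33 to 1.16).

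Cldn19, a tight junction protein of the thick ascending limb required for magnesium reabsorption, fell in WT (-1.31) and had a response of -0.46 in HDAC2-/- kidneys, a difference of 0.86 (SE 0.34) that was 0.49 without WT replicate 1. Bsnd, the barttin subunit of the chloride channels of the limb, fell in both genotypes (responses -2.34 and -1.60), and the ischemic HDAC2-/- kidneys were above the ischemic WT kidneys without overlap (difference 0.74 (SE 0.32), 0.45 without HDAC2-/- replicate 3). Egf, the precursor of epidermal growth factor, which this limb and the distal convoluted tubule make in large amounts, had log2 values of 10.86 to 11.27 in WT, 11.15 to 12.12 in ischemic WT, 10.88 to 11.06 in HDAC2-/- and 9.87 to 11.24 in ischemic HDAC2-/- kidneys. Its groups overlapped, with the highest value in ischemic WT replicate 2 and the lowest in ischemic HDAC2-/- replicate 2, and its difference lay below 0, at -1.03 (SE 0.43, 95% interval -1.94 to -0.11). Slc12a1, the furosemide-sensitive cotransporter, and Umod, uromodulin, both abundant in the limb, had differences of -0.60 (SE 0.40) and -0.34 (SE 0.30).

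**Figure D2:**
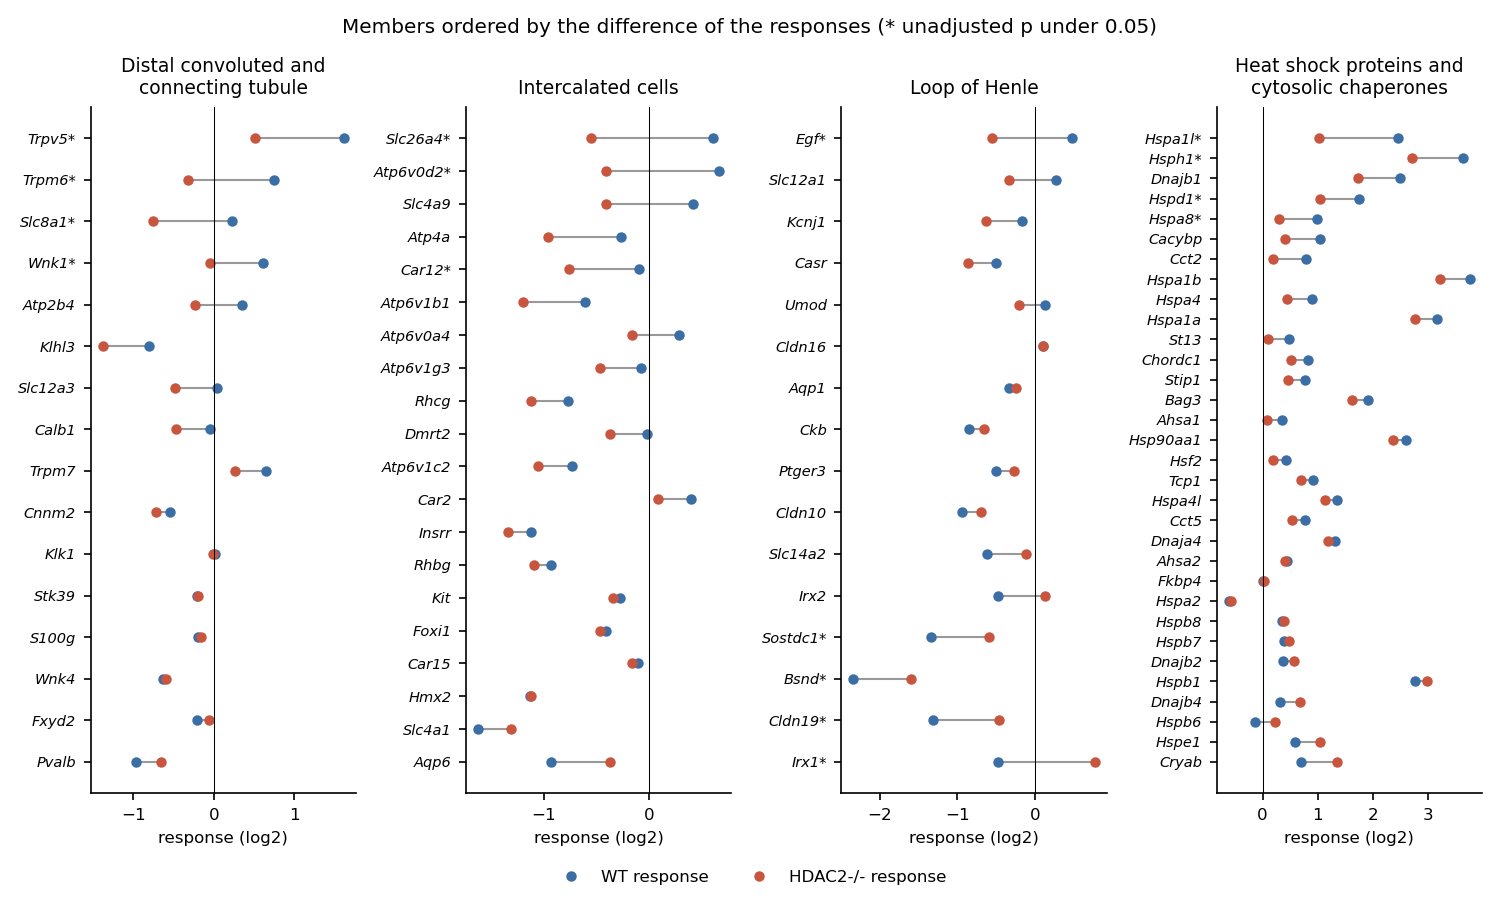
Response to ischemia (log2) of each member of 4 lists in WT (blue) and HDAC2-/- kidneys (red), ordered by the difference between them, with an asterisk at an unadjusted p under 0.05. In the distal convoluted and connecting tubule list and the intercalated cell list most HDAC2-/- points lie below the WT points, from Trpv5 (-1.10) and Slc26a4 (-1.15) at one end to Pvalb (0.31) and Aqp6 (0.57) at the other.

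The remaining epithelial lists lay close to 0. The proximal tubule list had a median difference of -0.06 over 33 genes, 12 above 0 and 21 below, and none of its members had an unadjusted p under 0.05. Slc13a1, the sulfate transporter of the proximal tubule, rose in both genotypes (1.14 and 0.65), and Lrp2, the endocytic receptor megalin, had responses of 0.17 and -0.16. The principal cell list had a median of 0.10 over 16 genes, with the water channel Aqp2 at 0.48 and the sodium channel subunit Scnn1b at -0.55. The podocyte list had a median of -0.06 over 19 genes. Of these, Tcf21, a transcription factor of podocytes and stromal cells, fell in both genotypes (-2.24 in WT and -1.41 in HDAC2-/- kidneys, difference 0.83 (SE 0.30)), while Nphs1 (nephrin, of the slit diaphragm) had a difference of -0.28.

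The heat shock and cytosolic chaperone list held 32 measured genes, and it rose strongly in both genotypes: 19 members rose in WT and 14 in HDAC2-/- kidneys. Its median difference was -0.24 (range -0.34 to -0.16), 22 members lay below 0 and 10 above, and 4 below 0 and 0 above had an unadjusted p under 0.05. The list's response was 1.10 to 1.26 in the WT arrays and 0.76 to 1.15 in the HDAC2-/- arrays, which overlapped. These genes are switched on by heat shock factor 1, which binds repeats of the unit GAA in alternating orientation.

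To show such repeats, RefSeq promoters (250 bases before to 50 after each start, build GRCm38.p6) were searched on both strands for GAANNTTC, in either phase. It occurred in 4946 of 32851 promoters (15.1%). Of the 29 heat shock genes with a promoter in this set, 16 had it in any of their promoters. This count is of genes and the 15.1% is of promoters, so they are not in the same unit. Printed here are 100 bases from upstream of the start of Hspd1, the chaperonin of mitochondria, and of Hsph1, a cytosolic chaperone, and of Hspa5, the main chaperone of the endoplasmic reticulum, because all are described below, with the matched letters in capitals. The Hspd1 stretch is chr1:55088018-55088117 on the minus strand and holds 3 overlapping matches, at -144 to -127 from the start. The Hsph1 stretch is chr5:149636316-149636415 on the minus strand and holds 1 match, at -54 to -47. The Hspa5 stretch is chr2:34771984-34772083 on the plus strand, and its capitals mark the endoplasmic reticulum stress element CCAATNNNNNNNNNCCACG, at -65 to -47.
Hspd1: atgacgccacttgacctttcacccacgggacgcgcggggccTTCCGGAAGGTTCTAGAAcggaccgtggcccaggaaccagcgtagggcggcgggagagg
Hsph1: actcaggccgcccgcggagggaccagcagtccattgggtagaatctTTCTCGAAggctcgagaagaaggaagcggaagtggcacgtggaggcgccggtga
Hspa5: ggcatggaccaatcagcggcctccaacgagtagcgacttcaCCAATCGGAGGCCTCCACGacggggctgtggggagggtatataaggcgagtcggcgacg

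The genes that carry each element were also counted over all functions. The 2670 measured genes with GAANNTTC had a median difference of -0.01 and the 107 with the 3-unit form GAANNTTCNNGAA (0.603% of promoters) one of 0.02, beside 0.00 over all 16990 genes with a promoter. The 29 measured genes with the endoplasmic reticulum stress element (0.119% of promoters) had a median difference of -0.14, with 15 below 0 and 14 above.

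Hspd1 had log2 values of 8.77, 8.75 and 8.81 in WT, 10.31, 10.94 and 10.31 in ischemic WT, 8.89, 8.82 and 9.17 in HDAC2-/- and 10.14, 9.96 and 9.89 in ischemic HDAC2-/- kidneys. Every ischemic value lay above every unischemic one, and the ischemic WT kidneys above the ischemic HDAC2-/- kidneys. Hspd1 rose by 1.74 in WT and 1.04 in HDAC2-/- kidneys, a difference of -0.71 (SE 0.24, 95% interval -1.23 to -0.18). Hspe1, the cochaperonin transcribed from the other strand of the same promoter region, had responses of 0.59 and 1.03 and a difference on the other side of 0, at 0.43 (SE 0.38). Hspa8, the constitutive cytosolic chaperone, had log2 values of 12.38, 12.00 and 11.96 in WT, 13.10, 13.26 and 12.93 in ischemic WT, 12.45, 12.22 and 12.47 in HDAC2-/- and 12.90, 12.62 and 12.48 in ischemic HDAC2-/- kidneys. Ischemic and unischemic kidneys did not overlap in either genotype, and neither did the ischemic groups. Hspa8 rose by 0.98 in WT and its HDAC2-/- response was 0.29 (adjusted p = 0.416), a difference of -0.70 (SE 0.23, 95% interval -1.19 to -0.21), and its 3 other probe sets gave -0.70, -0.61 and -0.63.

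Hsph1 rose by 3.62 in WT and 2.70 in HDAC2-/- kidneys, a difference of -0.91 (SE 0.42). Hspa1l, a relative of the inducible chaperone genes of the same cluster, gave -1.43 (SE 0.48) with one probe set and -0.04 with another, so its direction rests on the choice of probe set. Other strongly induced members lay on both sides of 0: Hspa1b, the inducible cytosolic chaperone, rose by 3.75 and 3.20 (-0.55 (SE 0.39)), its cochaperone Dnajb1 by 2.48 and 1.72 (-0.76 (SE 0.50)), Hsp90aa1 by 2.60 and 2.36, and the small heat shock protein gene Hspb1 by 2.76 and 2.98. Hspa1a and Hspa1b are near-identical copies, whose probes cannot keep them apart with certainty. At the upper end was Cryab, a small heat shock protein gene, with a difference of 0.65 (SE 0.32), which was 0.34 without WT replicate 1, and of 0.99 with its other probe set.

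The endoplasmic reticulum chaperones had a median difference of -0.22 over 22 genes (range -0.31 to -0.13), 18 below 0 and 4 above, with 1 below 0 at an unadjusted p under 0.05. In WT kidneys 9 rose and in HDAC2-/- kidneys 2, beside 6.55% and 2.94% of all probe sets. Without ischemia the list's mean log2 level was 9.36 to 9.66 in WT and 9.56 to 9.72 in HDAC2-/- kidneys. After ischemia it was 9.74 to 9.98 and 9.66 to 9.93. Hspa5 had log2 values of 8.51, 7.79 and 7.62 in WT, 9.36, 9.60 and 9.09 in ischemic WT, 8.55, 8.26 and 8.95 in HDAC2-/- and 9.12, 8.71 and 9.22 in ischemic HDAC2-/- kidneys. The ischemic WT kidneys lay above the unischemic WT kidneys, whereas the HDAC2-/- groups overlapped. The HDAC2-/- mean less the WT mean was 0.61 without ischemia and -0.33 after it, and the genotypes overlapped in both states. Hspa5 rose by 1.38 in WT, its HDAC2-/- response was 0.43 (adjusted p = 0.414), and the difference was -0.95 (SE 0.34, 95% interval -1.68 to -0.22). Hyou1, Hsp90b1 and Creld2, other chaperones and folding factors of this compartment, had differences of -0.53, -0.35 and -0.44. Within the integrated stress response, which shares inducers with this group, the median difference was -0.13 over 28 genes, and the transcription factors Atf4 and Ddit3 had differences of 0.08 and -0.46.

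Genes of ribosome biogenesis had a median difference of -0.31 over 35 genes, of which 31 lay below 0 and 4 above, with 1 on each side at an unadjusted p under 0.05. They rose in both genotypes, 19 members in WT and 10 in HDAC2-/- kidneys. Nop58, a core protein of the particles that methylate ribosomal RNA, rose by 1.81 and 1.20, a difference of -0.61 (SE 0.27) that was -0.40 without HDAC2-/- replicate 3, and Gnl3 (nucleostemin) rose by 1.92 and 1.56. Rrp12 and Utp20, factors of ribosomal RNA maturation, rose in WT (1.21 and 0.90) and had HDAC2-/- responses of 0.62 and 0.46. The list's response was 0.49 to 1.10 in WT and 0.39 to 0.55 in HDAC2-/- arrays, with the top value in ischemic WT replicate 2, and its median difference was -0.10 without that array. The same array had the lowest small RNA mean (8.02), and with that mean as a covariate the median difference was -0.26.

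**Figure D3:**
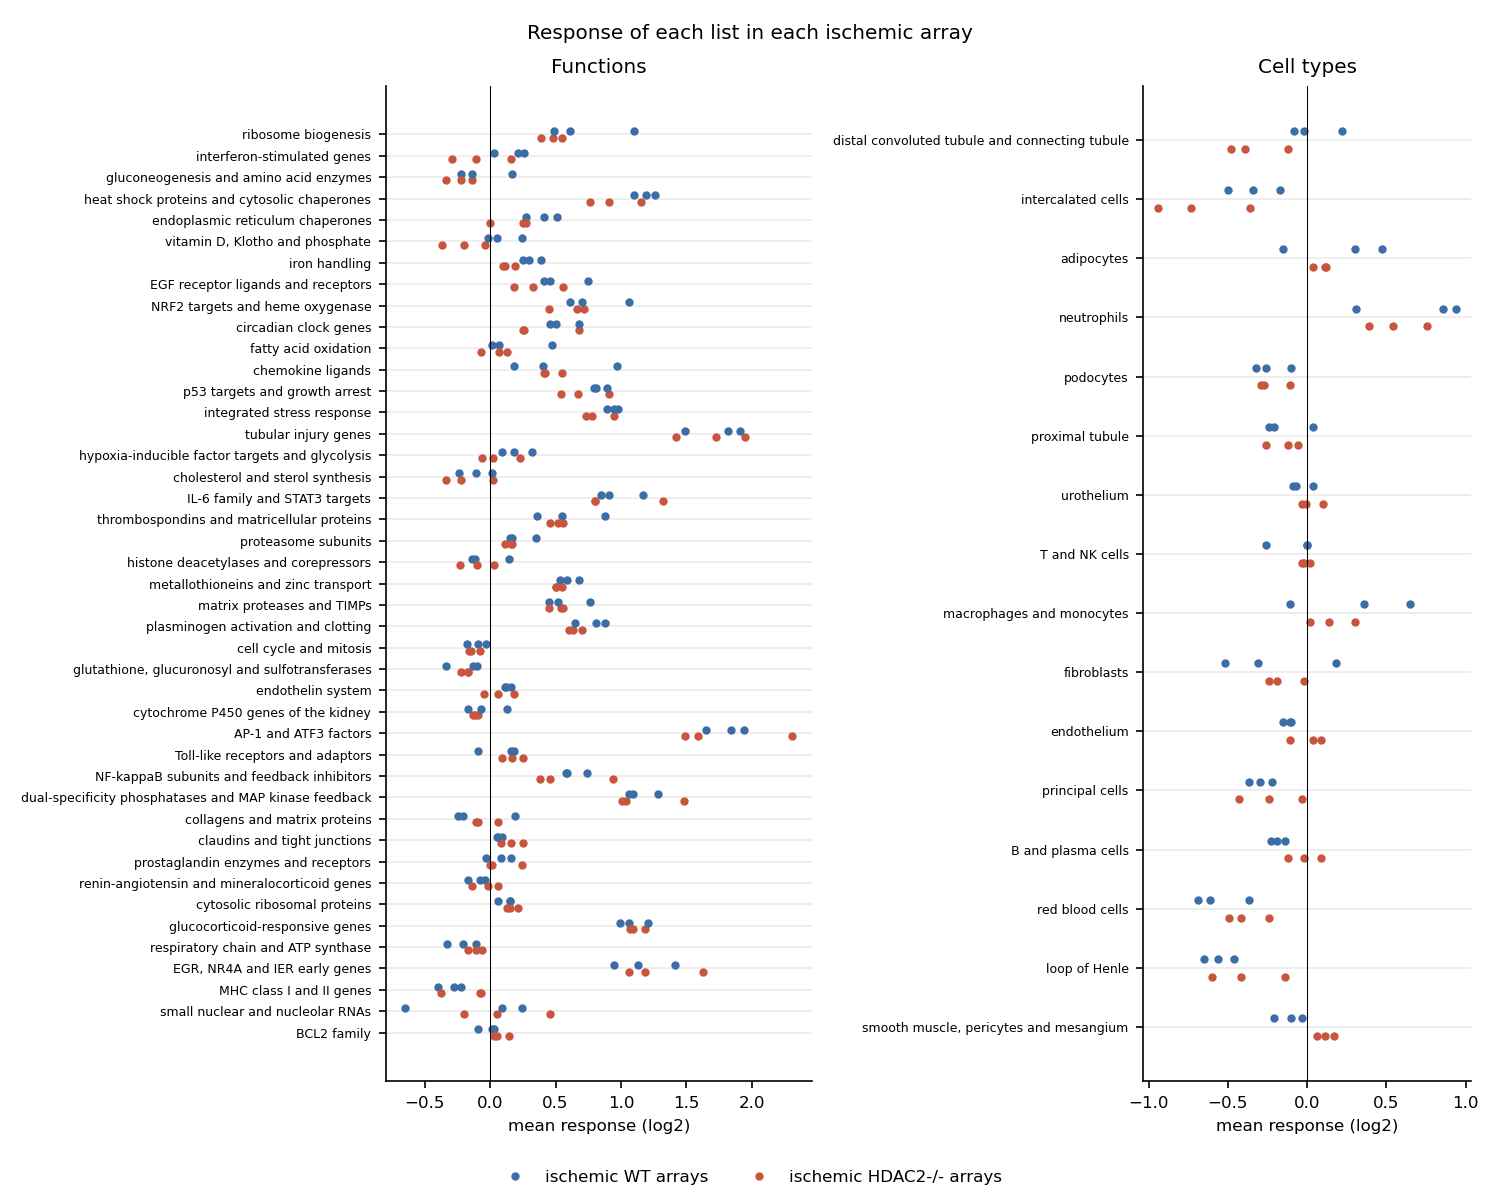
Mean response to ischemia (log2) of each list in each of the 3 ischemic WT and 3 ischemic HDAC2-/- arrays, 43 lists of functions and 16 of cell types, each array taken against the mean of its genotype without ischemia. The heat shock list reaches 1.10 to 1.26 in WT and 0.76 to 1.15 in HDAC2-/- arrays, and the distal convoluted and connecting tubule list lies at -0.08 to 0.22 and -0.48 to -0.12.

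Among metabolic functions, targets of hypoxia-inducible factor and glycolytic genes had a median difference of -0.09 over 32 genes (range -0.23 to -0.03), 23 below 0 and 9 above, with 4 below 0 and 0 above at an unadjusted p under 0.05. Hk2, a hexokinase that begins glycolysis, had log2 values of 5.46, 5.82 and 5.72 in WT, 6.71, 6.60 and 6.64 in ischemic WT, 5.65, 5.76 and 5.69 in HDAC2-/- and 6.22, 6.31 and 6.12 in ischemic HDAC2-/- kidneys. It rose in both genotypes, by 0.98 in WT and 0.52 in HDAC2-/- kidneys, the ischemic groups did not overlap, and the difference was -0.47 (SE 0.18, 95% interval -0.86 to -0.07). Pkm (pyruvate kinase) and Pfkfb4, a regulator of glycolytic flux, had differences of -0.59 (SE 0.24) and -0.49 (SE 0.22), with neither response passing the test, and Car12, already described, was the fourth. Adm, the vasodilator adrenomedullin, rose in both genotypes, and its difference was on the other side of 0 (0.44 (SE 0.22)).

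The vitamin D, Klotho and phosphate list had a median difference of -0.22 over 16 genes (range -0.33 to -0.11), 11 below 0 and 5 above, and the array responses of the genotypes did not overlap. Cyp27b1, the renal 1-alpha-hydroxylase that makes active vitamin D, had log2 values of 8.43, 8.88 and 8.97 in WT, 8.62, 7.71 and 7.59 in ischemic WT, 9.53, 8.98 and 9.21 in HDAC2-/- and 7.49, 7.38 and 7.46 in ischemic HDAC2-/- kidneys. Without ischemia the HDAC2-/- kidneys lay above the WT kidneys, and after ischemia below them. Cyp27b1 fell in both genotypes, with responses of -0.79 and -1.80 and a difference of -1.01 (SE 0.34, 95% interval -1.74 to -0.28). Cyp24a1, which degrades active vitamin D, had a difference of -0.84 (SE 0.78), which was 0.09 without WT replicate 1, and Kl (Klotho) one of -0.26 (SE 0.18). The list holds Trpv5 and Calb1, which are also in the distal tubule list.

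The iron handling list also showed no overlap, with array responses of 0.25 to 0.39 in WT and 0.10 to 0.19 in HDAC2-/- kidneys and a median difference of -0.21 over 16 genes (range -0.31 to -0.12). Slc40a1, the iron exporter ferroportin, had responses of 0.40 and -0.16 and a difference of -0.56 (SE 0.26) that was -0.32 without ischemic WT replicate 2, and Hp (haptoglobin), which binds free hemoglobin, rose in WT by 1.26 with an HDAC2-/- response of 0.44. Gluconeogenesis and amino acid enzymes had a median difference of -0.24 over 26 genes, 21 below 0 and 5 above, but 0 at an unadjusted p under 0.05, and fatty acid oxidation one of -0.15 over 23 genes. Without ischemic WT replicate 2 these medians were -0.09 and -0.01. Pck1, the rate-limiting enzyme of gluconeogenesis, was at -0.42, and Ass1 (argininosuccinate synthase) at -0.70, or -0.34 without HDAC2-/- replicate 1. The HDAC2-/- mean less the WT mean was 0.34 for Pck1 and 0.57 for Ass1 without ischemia, and -0.08 and -0.13 after it. The respiratory chain and ATP synthase lay on the other side, at 0.12 over 40 genes (range 0.02 to 0.17) with 29 above 0, and Ndufb8 and Sdha, subunits of complexes I and II, at 0.48 and -0.42.

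Interferon-stimulated genes had a median difference of -0.24 over 30 genes (range -0.37 to -0.13), 23 below 0 and 7 above, with 4 below 0 and 0 above at an unadjusted p under 0.05. Few of them passed the test after ischemia: 3 rose in WT kidneys and 1 fell in HDAC2-/- kidneys. Irgm1, an interferon-induced GTPase, had log2 values of 6.60, 6.50 and 6.70 in WT, 7.07, 7.25 and 7.01 in ischemic WT, 7.27, 6.65 and 6.64 in HDAC2-/- and 6.86, 6.52 and 6.54 in ischemic HDAC2-/- kidneys. The ischemic WT kidneys were above both the unischemic WT and the ischemic HDAC2-/- kidneys, and the HDAC2-/- groups overlapped. Its responses were 0.51 and -0.21, with a difference of -0.72 (SE 0.25, 95% interval -1.25 to -0.19). The others were the guanylate-binding protein Gbp7 (-0.74), the antiviral enzyme Rsad2 (-0.61) and the dynamin-like GTPase Mx2 (-0.57), while Isg15, a ubiquitin-like protein gene, was at 0.20. The interferon-stimulated response element GAAANNGAAA was present in any promoter of 18 of the 27 listed genes with a promoter, a count of genes. It was present in 3.44% of all promoters, and the 657 measured genes that carry it had a median difference of 0.01.

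Chemokine ligands rose in both genotypes for the main attractants of neutrophils, and the list had a median difference of -0.15 over 34 genes, which ranged from -0.27 to 0.13 when arrays were left out. Cxcl1 rose by 3.31 in WT and 2.84 in HDAC2-/- kidneys, and Cxcl2 by 1.86 and 1.71. Ccl2, which attracts monocytes, had log2 values of 7.09, 7.45 and 7.27 in WT, 10.49, 8.98 and 8.57 in ischemic WT, 6.95, 6.56 and 6.58 in HDAC2-/- and 9.89, 9.72 and 9.89 in ischemic HDAC2-/- kidneys. Unischemic HDAC2-/- kidneys lay below unischemic WT kidneys, and ischemic HDAC2-/- kidneys were within the wide range of the ischemic WT kidneys. Ccl2 rose by 2.08 in WT and 3.14 in HDAC2-/- kidneys, a difference of 1.06 (SE 0.49, 95% interval 0.02 to 2.10). It was 0.67 without ischemic WT replicate 3 and 1.63 without ischemic WT replicate 1. Cxcl12, a chemokine made by stromal cells and podocytes, fell in WT (-1.20) and had an HDAC2-/- response of -0.57, a difference of 0.63 (SE 0.23).

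Lists of leukocytes gave small medians, of -0.09 over 23 neutrophil genes and -0.01 over 29 macrophage and monocyte genes. Of the neutrophil genes, S100a8 rose by 1.46 and 1.51, and the C-type lectin receptor Clec4d rose in WT by 0.87 with an HDAC2-/- response of 0.10 (difference -0.77 (SE 0.34), -0.42 without ischemic WT replicate 1). Folr2, a folate receptor of resident macrophages, had responses of 0.19 and -0.54 and a difference of -0.74 (SE 0.31), while Adgre1, the surface antigen of kidney macrophages, had a difference of -0.01.

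The macrophage gene Retnla, a secreted protein of alternatively activated macrophages, was the only probe set whose difference had an adjusted p under 0.05 under any of the alternatives run. Its log2 values were 3.32, 3.39 and 3.61 in WT, 6.22, 3.05 and 7.66 in ischemic WT, 3.42, 3.40 and 3.48 in HDAC2-/- and 3.40, 3.49 and 3.54 in ischemic HDAC2-/- kidneys. Ischemic WT replicates 1 and 3 stood above all other kidneys, and replicate 2 did not. Its difference was -2.16 (SE 1.05, 95% interval -4.40 to 0.08). Without ischemic WT replicate 2 it was -3.46 (adjusted p = 0.0397, limma) and without replicate 3 it was -1.15, so the call rests on which of these mice is included. Other lists followed the same arrays: in ischemic WT replicates 1, 2 and 3 the response was 0.65, -0.11 and 0.36 for the macrophage and monocyte list, which had 14 members above 0 and 15 below, and 0.47, -0.15 and 0.30 for the adipocyte list.

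Of the adipocyte list 17 of 18 genes were measured, with 6 above 0 and 11 below and a median difference of -0.10. The list's mean log2 level was 7.40 to 7.53 in WT, 7.31 to 7.93 in ischemic WT, 7.22 to 7.40 in HDAC2-/- and 7.37 to 7.45 in ischemic HDAC2-/- kidneys. Its member Ucp1, the uncoupling protein of brown fat, had log2 values of 4.76, 4.67 and 4.80 in WT, 5.45, 5.08 and 6.49 in ischemic WT, 4.73, 4.64 and 5.04 in HDAC2-/- and 4.56, 5.03 and 5.06 in ischemic HDAC2-/- kidneys. Ischemic WT replicate 3 stood highest, Ucp1 rose in WT by 0.93, and the difference was -0.85 (SE 0.39, 95% interval -1.68 to -0.02), while Adipoq (adiponectin), which defines adipocytes, had a mean log2 value of 4.32 and a difference of -0.04 (SE 0.30). The part of fat or of leukocytes in the Retnla values was not tested.

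The MHC list had a median of 0.20 over 19 genes, 15 above 0 and 4 below, which was 0.07 without HDAC2-/- replicate 3 and -0.04 with arrays weighted by their quality. The B and plasma cell list had a median of 0.12 over 18 genes (range 0.07 to 0.16), and its array responses did not overlap between the genotypes. Cd79a, a part of the B cell receptor, had log2 values of 5.89, 6.18 and 5.98 in WT, 5.29, 4.96 and 5.42 in ischemic WT, 5.20, 5.61 and 5.56 in HDAC2-/- and 5.01, 5.63 and 5.64 in ischemic HDAC2-/- kidneys. Without ischemia the WT kidneys lay above the HDAC2-/- kidneys, and after ischemia the groups overlapped. Cd79a fell in WT (-0.79) and its HDAC2-/- response was -0.03, a difference of 0.76 (SE 0.27, 95% interval 0.18 to 1.35), while Ms4a1 and Cd22, which mark B cells, had differences of -0.08 and 0.12.

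The smooth muscle, pericyte and mesangial list was the furthest above 0 among cell types, with a median difference of 0.26 over 16 genes (range 0.14 to 0.31), 13 above 0 and 3 below. Its response lay between -0.21 and -0.03 in WT and between 0.06 and 0.17 in HDAC2-/- arrays, without overlap. Myl9, the regulatory light chain of smooth muscle myosin, was its only member at an unadjusted p under 0.05, and had log2 values of 10.57, 10.41 and 10.41 in WT, 9.58, 9.20 and 9.65 in ischemic WT, 10.42, 10.27 and 10.21 in HDAC2-/- and 10.01, 10.22 and 9.96 in ischemic HDAC2-/- kidneys. The ischemic WT kidneys lay below all others, and the HDAC2-/- groups overlapped slightly. Myl9 fell in WT (response -0.99, adjusted p = 0.00071), its HDAC2-/- response was -0.24, and the difference was 0.75 (SE 0.21, 95% interval 0.31 to 1.19). Tagln rose in both genotypes (0.69 and 1.19), Des (desmin) fell in WT (-0.75) with an HDAC2-/- response of -0.32, and Myh11, the myosin heavy chain that defines smooth muscle, had a difference of -0.20.

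The endothelial list had a median difference of 0.09 over 30 genes, and of 0.00 with weighted arrays. Apln, a peptide ligand of the apelin receptor, had log2 values of 9.19, 8.36 and 8.17 in WT, 8.52, 8.57 and 7.60 in ischemic WT, 8.35, 8.23 and 7.43 in HDAC2-/- and 9.34, 8.69 and 8.64 in ischemic HDAC2-/- kidneys. All ischemic HDAC2-/- kidneys lay above the ischemic WT kidneys, the WT groups overlapped, and the responses of -0.34 and 0.89 differed by 1.23 (SE 0.46, 95% interval 0.24 to 2.22). Aplnr, its receptor, fell in both genotypes (-2.38 and -2.22), and Selp and Sele, adhesion molecules for leukocytes, rose in both. Edn1, the vasoconstrictor endothelin 1, which the study names, had log2 values of 6.20, 6.10 and 6.01 in WT, 6.95, 7.73 and 6.76 in ischemic WT, 5.94, 5.80 and 5.37 in HDAC2-/- and 6.87, 5.91 and 6.19 in ischemic HDAC2-/- kidneys. Ischemic WT kidneys lay above the unischemic WT kidneys and overlapped with the ischemic HDAC2-/- kidneys. Without ischemia the HDAC2-/- kidneys already lay below the WT kidneys. The HDAC2-/- mean less the WT mean was -0.40 without ischemia and -0.82 after it. Edn1 rose by 1.04 in WT (adjusted p = 0.0172), its HDAC2-/- response was 0.62 (adjusted p = 0.242), and the difference was -0.42 (SE 0.37, 95% interval -1.23 to 0.38), which includes 0, and was -0.13 without ischemic WT replicate 2.

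**Figure D4:**
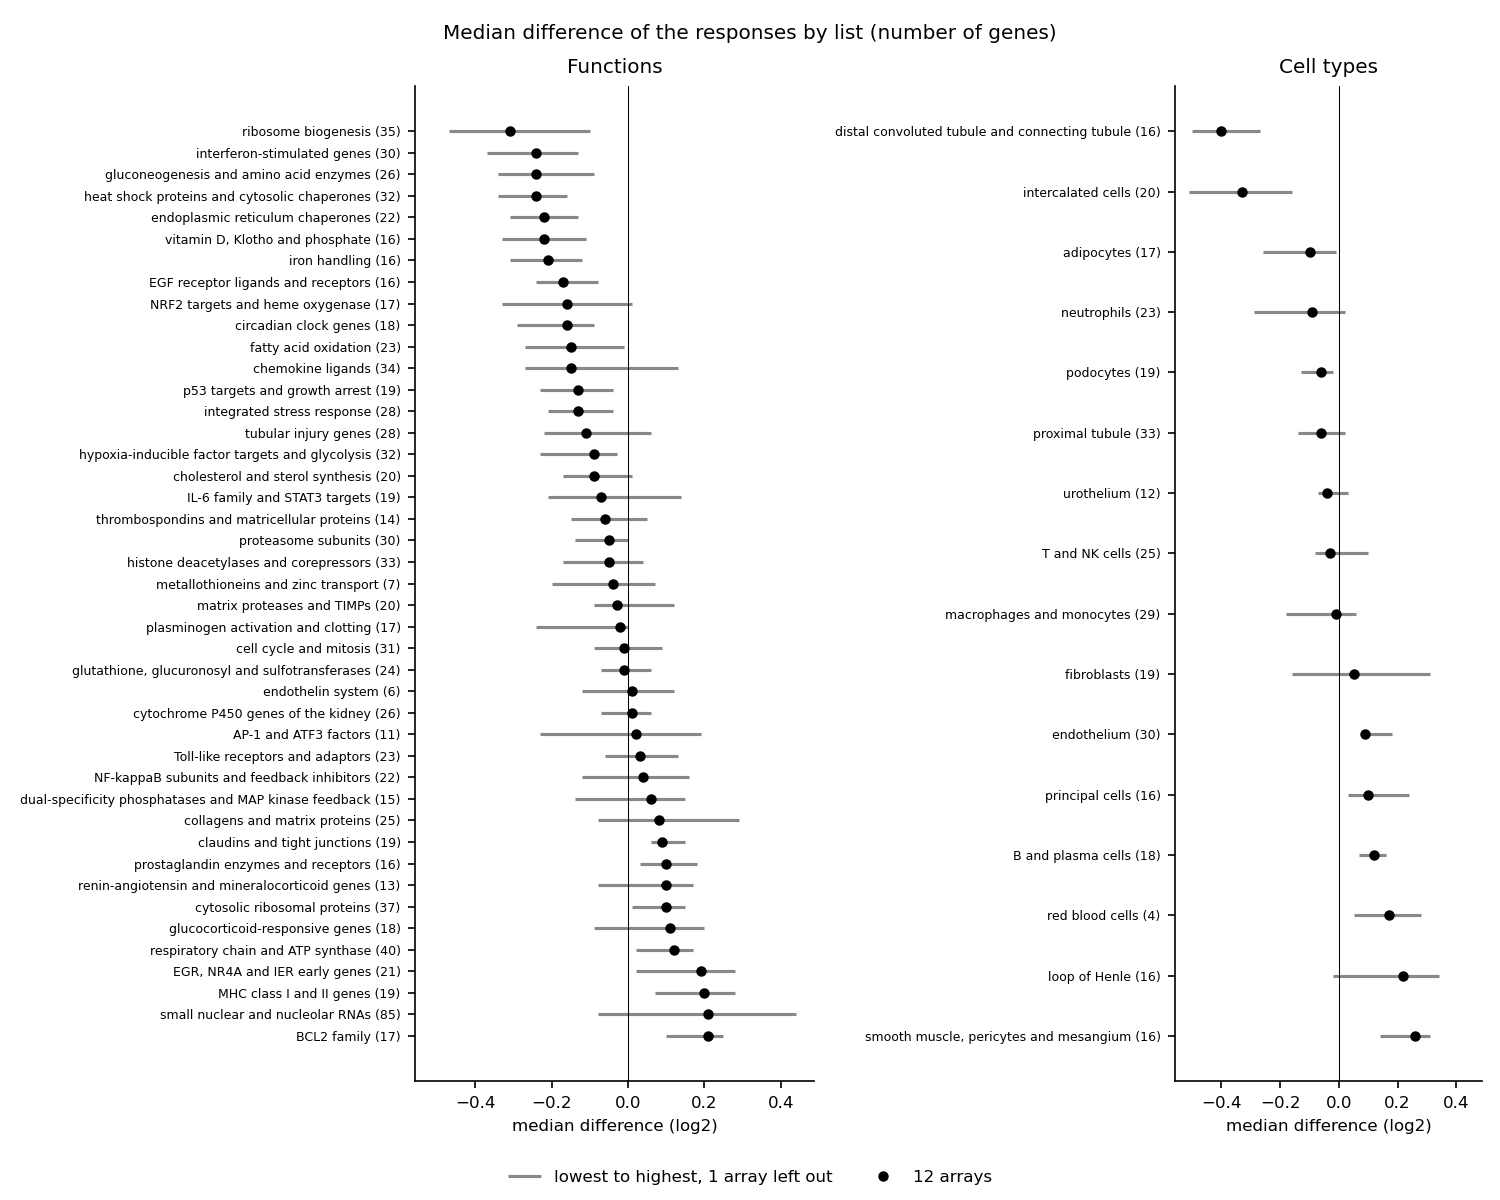
Median difference of the responses (HDAC2-/- less WT, log2) in each list, with the lowest and highest median over the 12 fits that each left out 1 array as a line. The distal convoluted and connecting tubule (-0.40), intercalated cell (-0.33) and ribosome biogenesis (-0.31) lists lie furthest below 0, and smooth muscle (0.26) and the loop of Henle (0.22) furthest above, the last with a line that reaches -0.02.

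The EGR, NR4A and IER early genes had a median difference of 0.19 over 21 genes, 15 above 0 and 6 below, which was 0.02 without ischemic WT replicate 2 and 0.00 with arrays weighted by their quality. The AP-1 and ATF3 factors had one of 0.02 over 11 genes, 6 above 0 and 5 below, and of -0.33 with weighted arrays. Myc rose by 2.35 in WT and 2.70 in HDAC2-/- kidneys and Klf6 by 2.57 and 2.07. The BCL2 family had a median of 0.21 over 17 genes (range 0.10 to 0.25), with array responses of -0.09 to 0.03 in WT and 0.03 to 0.14 in HDAC2-/- kidneys that met without overlapping. The proapoptotic members Bok and Bik fell in WT (-0.88 and -0.88) and had HDAC2-/- responses of -0.38 and -0.36, and Pmaip1 (Noxa) rose in WT by 1.04 with an HDAC2-/- response of 0.35, a difference of -0.69 (SE 0.28) that was -0.43 without ischemic HDAC2-/- replicate 3.

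The tubular injury genes, with a median of -0.11 over 28 genes, held members far to both sides. Sprr2f, a small proline-rich protein of stressed epithelium, had log2 values of 3.67, 4.09 and 4.10 in WT, 7.05, 6.93 and 7.48 in ischemic WT, 3.93, 3.85 and 4.03 in HDAC2-/- and 6.59, 5.31 and 5.60 in ischemic HDAC2-/- kidneys. It rose in both genotypes, by 3.20 and 1.90, and the ischemic WT kidneys lay above the ischemic HDAC2-/- kidneys, with a difference of -1.30 (SE 0.37, 95% interval -2.10 to -0.50). Sprr1a, of the same family of cornified envelope genes, had log2 values of 7.64, 7.18 and 7.63 in WT, 11.48, 11.11 and 10.57 in ischemic WT, 6.18, 6.39 and 7.27 in HDAC2-/- and 11.36, 10.79 and 11.98 in ischemic HDAC2-/- kidneys. It rose by 3.57 and 4.76, the ischemic groups overlapped, and the HDAC2-/- kidneys began lower, with a difference of 1.19 (SE 0.46, 95% interval 0.21 to 2.17). Clu (clusterin) rose in WT (1.11) with an HDAC2-/- response of 0.30, and Ccn2, connective tissue growth factor, gave 0.87 (SE 0.30) with one probe set and 0.18 with another. Thrombospondin 2 (Thbs2), a matrix protein, rose in WT by 0.51 (adjusted p = 0.0481) and had an HDAC2-/- response of -0.27, with no overlap of the ischemic groups (difference -0.77 (SE 0.22, 95% interval -1.25 to -0.29)). Thbs4 had a difference of -0.83 (SE 0.30).

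Among 16580 probe sets of 1 gene symbol with a mean log2 value of at least 5, 741 had an unadjusted p under 0.05, 469 above 0 and 272 below. Below 0, the largest difference of this set was that of Nt5c1a, a cytosolic enzyme that dephosphorylates AMP to adenosine. Its log2 values were 5.56, 5.79 and 6.12 in WT, 7.51, 8.25 and 7.44 in ischemic WT, 6.11, 6.09 and 5.98 in HDAC2-/- and 6.85, 5.97 and 6.44 in ischemic HDAC2-/- kidneys. The ischemic WT kidneys lay above all others, and the ischemic HDAC2-/- kidneys overlapped with the unischemic ones. Nt5c1a rose by 1.91 in WT, its HDAC2-/- response was 0.36 (adjusted p = 0.524), and the difference was -1.55 (SE 0.34, 95% interval -2.28 to -0.82). The gene next to it, Hpcal4, a neuronal calcium sensor, had log2 values of 5.96, 5.83 and 5.60 in WT, 7.31, 7.46 and 7.24 in ischemic WT, 6.04, 6.21 and 6.29 in HDAC2-/- and 7.02, 6.35 and 6.37 in ischemic HDAC2-/- kidneys. It rose by 1.54 in WT, its HDAC2-/- response was 0.40 (adjusted p = 0.268), the ischemic groups did not overlap, and the difference was -1.14 (SE 0.25, 95% interval -1.68 to -0.60).

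Serpina3n, an acute phase protease inhibitor, had log2 values of 5.59, 5.48 and 5.55 in WT, 9.50, 7.92 and 8.64 in ischemic WT, 5.69, 5.93 and 6.01 in HDAC2-/- and 7.58, 7.54 and 7.63 in ischemic HDAC2-/- kidneys. It rose by 3.15 in WT and 1.71 in HDAC2-/- kidneys, with the 3 ischemic HDAC2-/- values close together below all ischemic WT values, and the difference was -1.44 (SE 0.39, 95% interval -2.27 to -0.61). The gamma chain of fibrinogen, Fgg, had responses of 1.07 and -0.04, a difference of -1.11 (SE 0.38) that was -0.73 without ischemic WT replicate 2. Ptgfr, the receptor for prostaglandin F2-alpha, rose in both genotypes (2.07 and 1.09, difference -0.98 (SE 0.30)) without overlap of the ischemic groups. Dsp, the desmosome protein desmoplakin, had a difference of -1.11 (SE 0.48) with overlapping ischemic groups, and Hepacam2, an immunoglobulin-like adhesion protein, one of -1.13 (SE 0.32) without overlap.

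Mir103-2, 1 of the 2 genes that give rise to miR-103, had log2 values of 5.39, 4.40 and 5.07 in WT, 5.51, 6.05 and 6.12 in ischemic WT, 5.05, 5.39 and 5.55 in HDAC2-/- and 4.74, 5.59 and 5.04 in ischemic HDAC2-/- kidneys. Ischemic WT replicates 2 and 3 were highest, and the ischemic groups overlapped. Its probe set rose in WT by 0.94 (adjusted p = 0.0306), the HDAC2-/- response was -0.21, and the difference was -1.15 (SE 0.38, 95% interval -1.96 to -0.34), while Mir103-1 gave -0.38 (SE 0.28). The probe set reports the transcript of the gene and not a mature arm. The mature sequences are given from RefSeq (GRCm38.p6), with the seed, bases 2 to 8, in capitals, the first from chr2:131288103-131288125 and the second from chr2:131288066-131288088, both on the plus strand, and both genes share the first, so that mature miR-103-3p cannot be assigned to 1 of them.
mmu-miR-103-3p: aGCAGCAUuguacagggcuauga
mmu-miR-103-2-5p: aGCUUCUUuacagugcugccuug

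Above 0, the largest differences moved with WT replicate 1. Scgb2b27, a secretoglobin, had log2 values of 7.11, 5.74 and 5.18 in WT, 4.65, 4.78 and 4.32 in ischemic WT, 3.82, 5.52 and 4.21 in HDAC2-/- and 4.84, 5.54 and 4.95 in ischemic HDAC2-/- kidneys. The unischemic groups overlapped, with WT replicate 1 the highest, and the difference was 2.02 (SE 0.63, 95% interval 0.66 to 3.38), or 1.47 without that array. The secretoglobin Scgb1c1 and the genes Ldc1, Ly6f, Igf2 and Nccrp1 followed, with differences of 1.76, 1.50, 1.38, 1.27 and 1.26. In each of them WT replicate 1 had the highest value of all 12 arrays. Without it the differences were 1.37 for Scgb1c1, 0.93 for Ly6f, 0.68 for Igf2 and 0.63 for Nccrp1, and that of Ldc1 was 0.96 without HDAC2-/- replicate 3.

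Psca, a surface antigen of urothelium and other epithelia, did not follow that array. Its log2 values were 6.06, 5.65 and 6.34 in WT, 5.54, 5.51 and 5.47 in ischemic WT, 5.10, 5.38 and 6.06 in HDAC2-/- and 6.18, 6.48 and 5.83 in ischemic HDAC2-/- kidneys. All ischemic HDAC2-/- kidneys lay above all ischemic WT kidneys, the unischemic groups overlapped, and the responses of -0.51 and 0.65 differed by 1.16 (SE 0.34, 95% interval 0.43 to 1.89). The histone gene H4c9 had log2 values of 6.98, 6.33 and 7.10 in WT, 6.27, 5.89 and 6.90 in ischemic WT, 6.67, 6.66 and 6.90 in HDAC2-/- and 7.46, 7.78 and 7.26 in ischemic HDAC2-/- kidneys. The ischemic HDAC2-/- kidneys lay above all others, and the responses of -0.45 and 0.76 differed by 1.21 (SE 0.35, 95% interval 0.45 to 1.96). H2bc12, a histone H2B gene, had a difference of 0.99 (SE 0.38). Tril, an adaptor of Toll-like receptors, fell in both genotypes (-2.63 and -1.65, difference 0.98 (SE 0.35)).

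**Figure D5:**
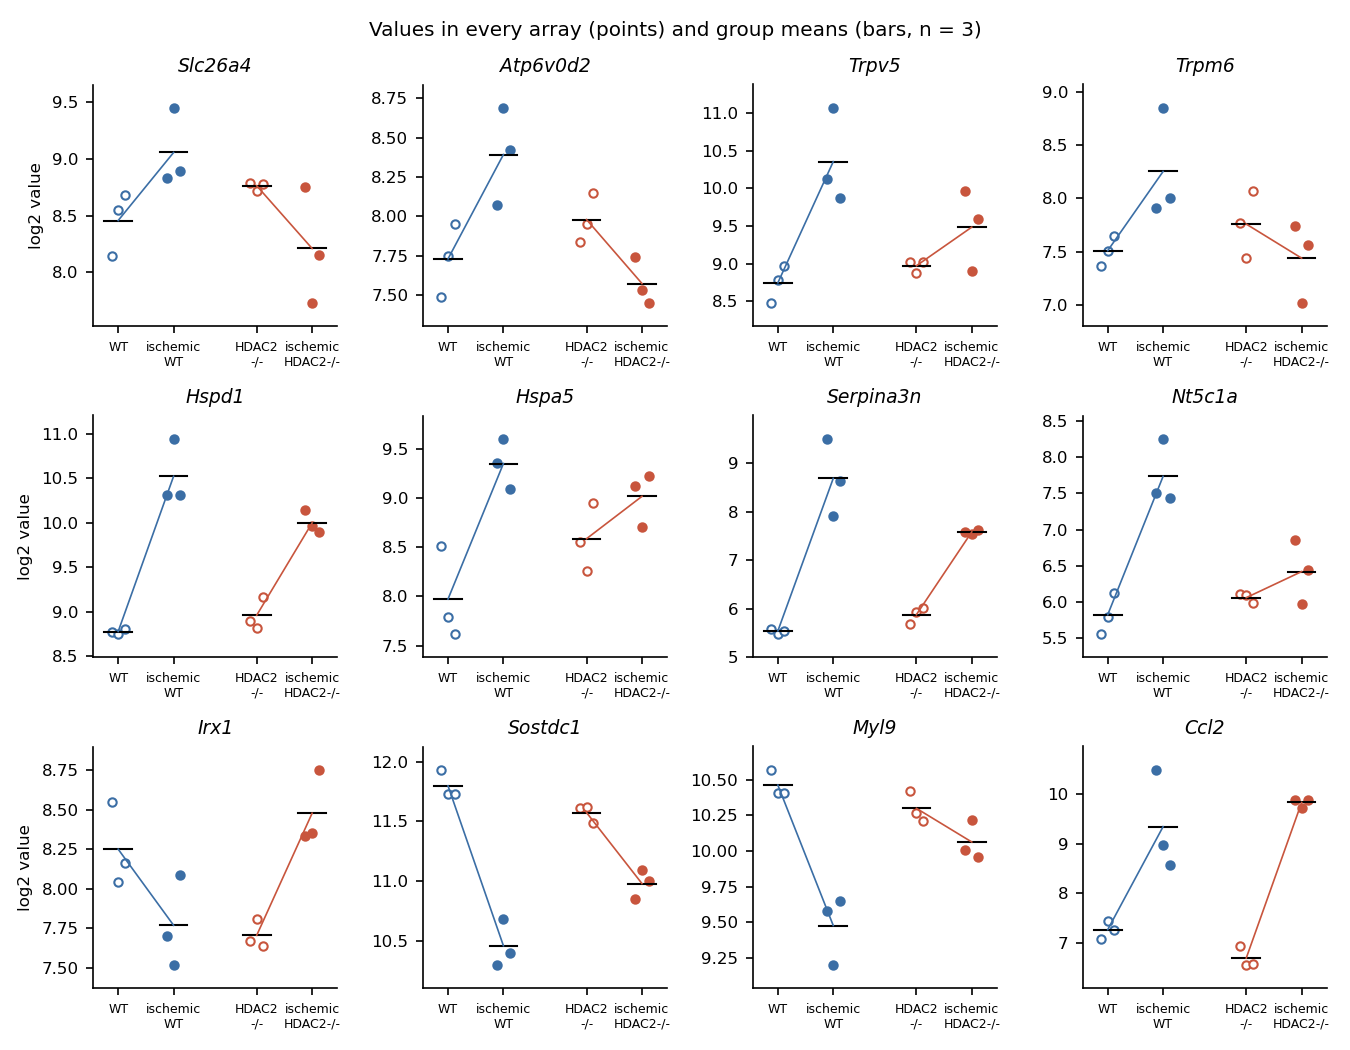
Log2 expression of 12 genes in each of the 12 kidneys, by group, with bars at the group means. Slc26a4 and Atp6v0d2 are higher in ischemic than unischemic WT kidneys and not in HDAC2-/- kidneys, the 3 ischemic HDAC2-/- values of Irx1 (8.33 to 8.75) lie above the unischemic ones (7.64 to 7.81), and Ccl2 is raised in both genotypes.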

How the data were processed

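RNA from the kidneys was hybridised to GeneChip Mouse Gene 2.0 ST arrays, 1 per mouse. The authors ran robust multiarray average in Transcriptome Analysis Console 4.0 over all arrays and deposited 1 log2 value per probe set and array, which was used as deposited. The values ran from 1.58 to 14.51. The background setting and annotation version are not given in the sources used here. Of 34472 probe sets, 23521 carried 1 gene symbol, 1820 several, and 9131 were not in the annotation table used. In lists, a gene with more than 1 probe set was represented by its brightest. Precision is limited by the number of arrays, which give no depth.

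A linear model with 1 mean for each group was fitted to the 12 arrays with limma 3.58.1 (R 4.3.3), and variances were moderated by empirical Bayes, with 8 residual degrees of freedom and a prior of 5.94. The WT response, the HDAC2-/- response and their difference were tested two-sided, with Benjamini-Hochberg adjustment over the 34472 probe sets. The p-values measure the spread between these mice, 1 array each. The script was tested on simulated data.

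Over all genes, those named had 1 symbol, a mean of at least 5 and an unadjusted p under 0.05 for the difference. They were the 10 largest differences on each side and responses of opposite sign that were each at least 0.5. In each list, up to 4 members with an unadjusted p under 0.05 were named by p, or else the 2 with the smallest p. No minimum mean was applied to list members, which include Clec4d (WT mean 3.94) and Mx2 (WT mean 4.72). Hdac2, Edn1 and Retnla were added. Predicted genes, receptor families, immunoglobulin segments and small nuclear and nucleolar RNAs (68 of the 741 candidates) were counted but not named. The gene lists and the members named were chosen with earlier results of these data known. Alternatives were median centring, quantile normalization, array weights, no empirical Bayes moderation, a filter on low values, other thresholds, a replicate block, the small RNA mean as a covariate, and leaving out each array. Promoter and miRNA sequences came from RefSeq (GRCm38.p6), and motifs were searched on both strands. Python 3.11.15 and matplotlib 3.10.9 were used for the plots.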

Additional observations from a re-analysis of the deposited data

How the results depend on the processing

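The difference of the responses had 0 calls with all arrays and in all alternatives run except 1: leaving out each array in turn gave 0 to 1 calls, the single one being Retnla without ischemic WT replicate 2, and 92 probe sets passed the rule of 2-fold with an unadjusted p under 0.05. Without the 2-fold limit the count was 1445, against 2806 with array weights (smallest adjusted p 0.105), 896 with a mean of at least 5, and 1092 to 2405 with arrays left out, the highest without ischemic WT replicate 3. The share above 0 was 60.4%, 52.5% with quantile normalization and 45.4% without ischemic WT replicate 2. Calls of the WT response (4730) were 2675 to 5418 with arrays left out and 1177 by the 2-fold rule. Calls of the HDAC2-/- response (1691) were 744 to 2848 with arrays left out, 6356 with array weights, 844 without empirical Bayes moderation, 2961 with the small RNA covariate and 617 by the 2-fold rule. For ischemia over both genotypes (6358) they were 9558 with array weights, 3083 at an adjusted p under 0.1 and more than 1.5-fold, and 737 by the 2-fold rule. The causes were not tested. Counting each list under each alternative, the list median stayed within its spread between arrays in 994 comparisons and moved further in 68. Some named genes changed sign: over the arrays left out, Adgre1 ranged from -0.17 to 0.21, Adipoq from -0.23 to 0.17, Aplnr from -0.12 to 0.36, Cxcl2 from -0.61 to 0.34, Cyp24a1 from -1.41 to 0.09, Foxi1 from -0.15 to 0.01, Hdac2 from -0.10 to 0.28, Hspb1 from -0.06 to 0.46 and S100a8 from -0.51 to 0.44. With array weights Pvalb was at -0.13, S100a8 at -0.77 and Slc4a1 at -0.12, and with the small RNA covariate S100a8 was at -0.12.

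Correlations of the deviations from the group means ran from -0.373 to 0.444 between same-numbered arrays and from -0.397 to 0.344 between others. Deviations from a mean of 3 arrays sum to 0 within a group, so this check cannot show whether replicate numbers pair the samples. With the replicate number as a block there were 0 calls of the difference, 1467 at an unadjusted p under 0.05, and 4906, 1754 and 6604 calls for WT, HDAC2-/- and both genotypes.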
